A study of Arabidopsis thaliana with 3 samples.

Results

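Junctions at which both splice sites had moved were taken from the deposited table of alternative splicing events as all entries of the class ALTP in nuclear genes. They numbered 1500 of the 62849 nuclear events, at 1240 junctions in 1082 of 14457 listed nuclear genes. Events in which the donor and the acceptor had moved by the same number of nucleotides were kept apart, because such a shift leaves the length of the intron unchanged and can come from the placement of a read. There were 412 such equal events and 1088 unequal events. The RNA was from Arabidopsis thaliana of the ecotype Col-0, untreated, with the first true leaves of the plants pooled, and the plants were grown at 20 degrees C under 16 h of light and 8 h of dark a day at 70% humidity. All samples form 1 group of 3 replicate libraries, with no age given and no treated or mutant group to compare with. The labels do not tie the replicates to separate plantings, and the spread between them may be technical.

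An intron is cut at a donor site at its start and an acceptor site at its end. Nearly all plant introns begin with GT and end in AG, and a few begin with GC. A small class removed by the minor spliceosome can begin with AT and end in AC. A transcript of the opposite strand, read along the gene, shows its introns with the ends CT-AC. When both sites move, the exons on either side change together, and the reading frame is kept only where the 2 changes add up to whole codons.

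The level of an event was its alternative reads in percent of all reads at the junction. Nuclear junctions between neighbouring exons with a listed event held 34587113, 33141594 and 62624801 reads in the 3 libraries, retained reads included. Junctions without a listed event are not counted. The median junction with an ALTP event held 282, 271 and 468 reads. The median event rested on 4, 3 and 6 alternative reads, and the table lists only events with at least 1 in every library. Mesophyll genes led the leaf markers, with 346934, 301076 and 682042 reads at the median junction of RBCS1A, against 18, 6 and 23 at the listed junction of the floral gene AG and no listed junction of the root hair gene SHV2. The trichome gene GL2 was as low, with 19, 10 and 24 reads at its median junction. Guard cell, epidermis and vascular markers were at 99 reads or more, so the tissue was mixed, and fewer cells of a type cannot be told apart from less RNA per cell.

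The sequences of the leading equal events are shown first because they decide how many RNAs each event stands for. All sequences are from RefSeq TAIR10.1 on the strand of the gene, and capitals mark the bases between the listed site and the new site. In HCEF1, the chloroplast fructose bisphosphatase of the Calvin cycle (chr3:20017398-20017522 is the listed intron, + strand), the intron was listed as GT-AG and the new intron, 2 nt upstream at both ends, as AG-GC. Joining the exons at either pair of sites gives the same letters.
HCEF1 donor side, chr3:20017387-20017406: tctctaatgAGgtctcattc
HCEF1 acceptor side, chr3:20017512-20017531: ggtgagtgcAGgtgttttcc
HCEF1 spliced RNA, listed form: tctctaatgAGgtgttttcc
HCEF1 spliced RNA, new form: tctctaatgAGgtgttttcc

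The cytosolic fructose bisphosphatase gene FBP showed the same with a longer run, since 9 bases after the donor were repeated after the acceptor and both sites moved 9 nt downstream. The new intron began with GA and ended in GA.
FBP donor side, chr1:16469604-16469630: aactacaaaGTATGTAGAgaaagtgat
FBP acceptor side, chr1:16469692-16469718: tcggtgtagGTATGTAGAgaaatgcaa
FBP spliced RNA, both forms: aactacaaaGTATGTAGAgaaatgcaa

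In SSI2, the plastid stearoyl-ACP desaturase, both introns were GT-AG and the spliced RNAs differed at 3 of the 4 swapped positions.
SSI2 donor side, chr2:18120238-18120259: cggccccaaGTCAgtctctttc
SSI2 acceptor side, chr2:18121345-18121366: ttaatgcagGGAGgttgagagt
SSI2 spliced RNA, listed form: cggccccaaGTCAgttgagagt
SSI2 spliced RNA, new form: cggccccaaGGAGgttgagagt

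The unequal events with the most reads are shown next, to let the new and the listed sites be read side by side. They are in SNG1, the sinapoyltransferase that makes the leaf sunscreen sinapoylmalate, UBC8, a ubiquitin-conjugating enzyme, eEF-1Bb1, a subunit of the exchange factor of translation elongation, and HMGB3, a chromatin protein of the high mobility group B family.
SNG1 donor side, chr2:9789738-9789761: actatcaaaGCAAGTgttattatt
SNG1 acceptor side, chr2:9789836-9789857: ggattatagGGAGgtggacaca
UBC8 donor side, chr5:16676127-16676150: cctcctgcaGTGCAGgttcacttc
UBC8 acceptor side, chr5:16676474-16676500: atgttttagTTTTTGCAGgtccagttg
eEF-1Bb1 donor side, chr1:10640406-10640427: acaagatatGTAAgtttcatga
eEF-1Bb1 acceptor side, chr1:10640505-10640525: ataatgcagGAGgatggagaa
HMGB3 donor side, chr1:7180746-7180769: aagaaattgGTAATTgtttatttg
HMGB3 acceptor side, chr1:7180974-7180998: tggtttcagGAGGAAGgccctaagg
In SNG1, eEF-1Bb1 and HMGB3 the new sites lay upstream, so the new intron starts with the capitals at the donor and ends just before them at the acceptor. In UBC8 they lay downstream, and the capitals at the donor became exon and those at the acceptor became intron.

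The equal events were mostly slides of a few nucleotides in 1 direction. Of the 412, 280 moved both sites upstream, 122 moved both downstream, and 10 moved them apart or together by the same length. A shift of 2 nt was the most frequent, with 169 of the 402 slides, followed by 3 nt with 72, 4 nt with 66, 1 nt with 32 and 6 nt with 25. In 259 of the 402 slides the spliced RNA was the same letter for letter whichever pair of sites was used, so that a read across the junction fits both. Among these, 254 new introns had neither GT-AG, GC-AG nor their opposite-strand ends, and AG-AC with 68 and AG-GC with 30 were the most frequent ends. In the other 143 slides the RNAs differed by at least 1 base, and 36 new introns were GT-AG or GC-AG, 39 were CT-AC or CT-GC and 68 had other ends.

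**Figure D1:**
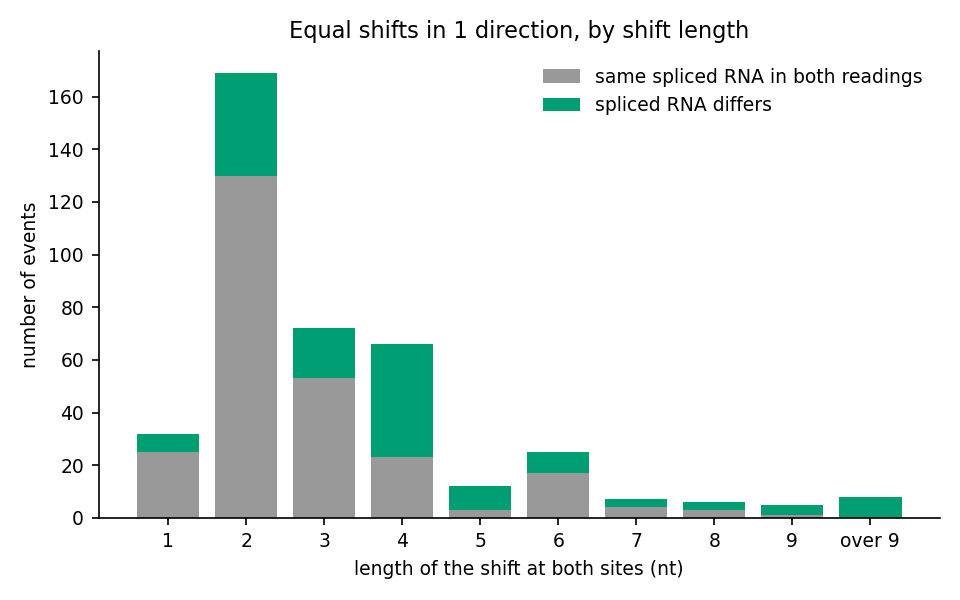
Number of slides (y axis) by the length of the shift in nt (x axis), for the 402 equal events whose sites moved in 1 direction. Grey bars are events whose spliced RNA is the same in both readings and green bars those in which it differs. At 2 nt, 130 of 169 slides gave the same RNA, and at 4 nt 23 of 66 did.

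The largest equal event was that of HCEF1, with 4521, 4335 and 8221 alternative reads. Its level was 43.9, 41.7 and 42.5% (42.7% ± 1.14, SD, n = 3), and it alone held 34.3% of the 49810 alternative reads of all equal events. The 3 libraries were close to each other, and the other reads of the junction were nearly all in no listed event, 22485 over the libraries. LIN2, a coproporphyrinogen oxidase of tetrapyrrole synthesis, was at 23.5, 21.7 and 23.2% with a slide of 3 nt to an intron CT-TA. FBP was at 13.0, 11.6 and 11.9%, and DJ1D, of the DJ-1 family, at 33.0, 35.2 and 35.4% with a slide of 2 nt. These 4 events had the same spliced RNA in both forms and kept their levels within a few points between libraries. Reads of 1 RNA sequence were thus divided between 2 positions, and these levels cannot tell different RNAs apart.

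Only 5 of the 259 slides with the same spliced RNA had a GT-AG or GC-AG new intron, and all 5 are named here after their values were seen. SAMC1, a carrier of S-adenosylmethionine in the plastid envelope, had 593, 524 and 1046 alternative reads and a level of 98.0, 94.9 and 97.5%. Its new intron, GC-AG and 4 nt upstream, is annotated in RefSeq, and the spliced RNA is agacttcagGCAGctcgtggag in both forms, with the swapped bases in capitals. AT2G37160 was at 82.6, 83.6 and 91.4% and is annotated as well. BRS1, a serine carboxypeptidase, ZIFL2, a transporter, and COP1, the ubiquitin ligase of light signalling, were at 7.60% ± 3.82, 37.0% ± 7.96 and 9.29% ± 2.46 (SD, n = 3) on few reads, and their new introns are not annotated.

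Slides that changed the RNA and kept GT-AG or GC-AG ends reached high levels. SSI2 had 1577, 1171 and 2610 alternative reads at 98.7, 99.3 and 98.6%. NOA1, a plastid GTPase, was at 95.1, 97.7 and 97.8%, SPPL2, a signal peptide peptidase-like protease, at 98.2, 96.9 and 95.8%, and RHF2A, a RING ubiquitin ligase, at 92.1, 93.5 and 94.5%. In RHF2A both sites moved 12 nt upstream and 9 of the 12 swapped bases differed. All 4 new introns are annotated, and at most 17 reads in SSI2 and 3 in SPPL2 fell in no listed event, with none in NOA1 and RHF2A. AT4G18810, with an unannotated GT-AG intron 4 nt downstream and 2 differing bases, was at 50.1, 48.6 and 46.1%, and there 968 reads fell in no listed event.

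The unequal events took all 4 forms. Both exons became longer in 217, both shorter in 324, both sites moved downstream in 246 and both upstream in 301. The median donor shift was 107 nt and the median acceptor shift 51 nt where both exons became longer, against 32 and 33 nt where both became shorter. Of the unequal new introns 620 (57.0%) were GT-AG or GC-AG, 193 (17.7%) were CT-AC or CT-GC, the canonical ends of the other strand, and 275 (25.3%) had other ends. Of the equal new introns, 45 (10.9%), 41 (9.95%) and 326 (79.1%) were in these 3 classes. The listed introns they replaced were GT-AG in 1067 of the 1088 unequal and 392 of the 412 equal events.

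**Figure D2:**
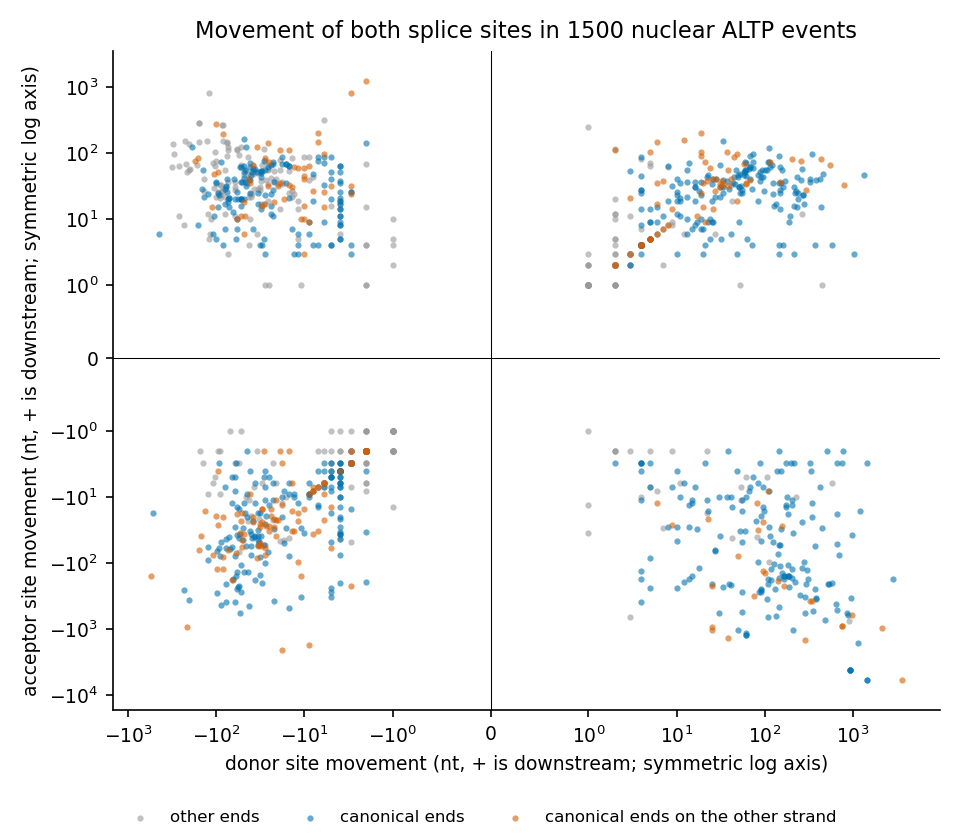
Movement of the donor (x axis) and of the acceptor (y axis) in nt, with downstream positive and both axes on a symmetric log scale, for the 1500 events; colours give the class of the new intron's ends. The 402 equal slides lie on the diagonal close to the origin, and the 620 unequal canonical introns spread over all 4 quadrants.

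The median level differed between the classes far more than between libraries. Unequal events had a median of 2.33, 2.05 and 2.08% in the 3 libraries (mean 2.15 ± 0.157, SD), and equal events one of 0.141, 0.151 and 0.122% (0.138 ± 0.0145). The difference of the medians was 2.19, 1.90 and 1.96 points and positive in 3 of 3 libraries; an exact two-sided sign-flip test gave p = 0.25, the smallest that 3 libraries allow. The equal events lay at deeper junctions, with a median of 6198 reads over the 3 libraries against 900, and a listed event can reach a lower level there, so depth and kind of shift cannot be told apart in this difference. Single shifts listed in the same table, for comparison, had a median of 2.39 ± 0.163% for the 8616 acceptor events and 2.62 ± 0.215% for the 4863 donor events. The medians of unequal ALTP events differed from these by -0.231, -0.315 and -0.163 points and by -0.524, -0.517 and -0.360 points. Each sign-flip p was again 0.25 (exact), and with at least 10 alternative reads in every library both differences changed sign, to 15.7 and 16.8 points.

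Within the unequal events the levels differed between the classes of ends of the new intron. GT-AG or GC-AG introns had median levels of 4.49, 4.02 and 4.31% (4.27 ± 0.241), opposite-strand ends 7.02, 7.82 and 6.98% (7.27 ± 0.476), and other ends 0.0623, 0.0543 and 0.0452% (0.0539 ± 0.00856). The medians of the first class lay below those of the opposite-strand class in 3 of 3 libraries, with differences of -2.52, -3.80 and -2.67 points (exact sign-flip p = 0.25). The junctions of the 3 classes had medians of 671, 295 and 13768 reads over the 3 libraries. Depth and ends thus cannot be told apart in these levels. The 45 equal events with GT-AG or GC-AG ends had the highest median, 38.3, 40.0 and 41.9%.

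**Figure D3:**
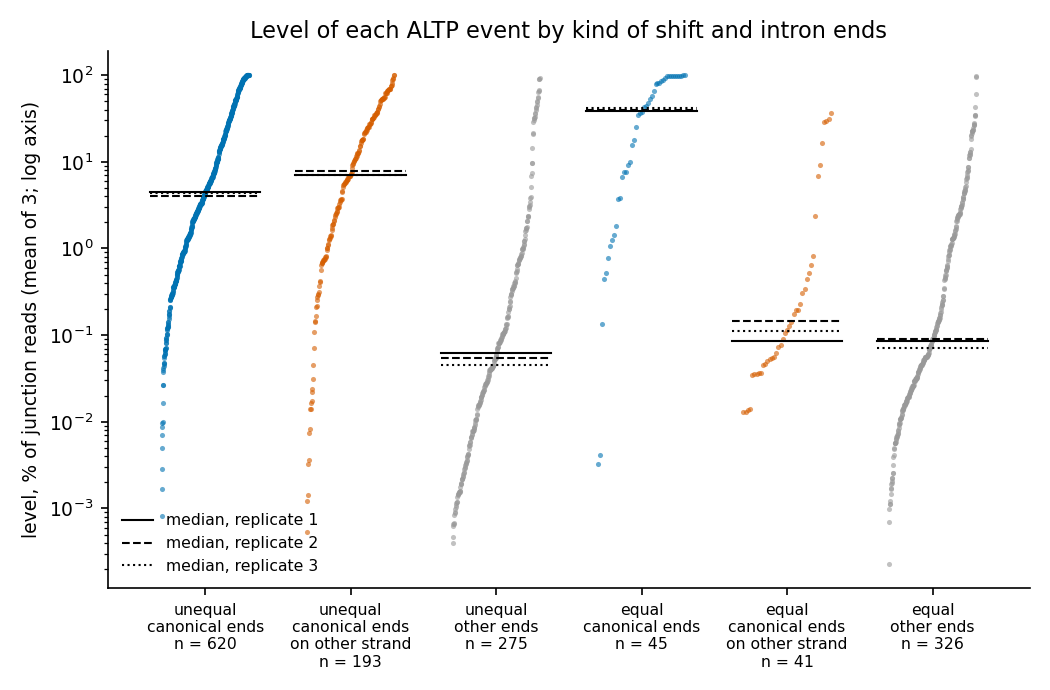
Mean level of each event over the 3 libraries (y axis, % of junction reads, log scale), sorted within 6 classes by kind of shift and ends of the new intron; lines are the class medians in the 3 libraries. Unequal canonical introns sit around 4.27% and unequal introns with other ends around 0.0539%.

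The classes differed with the depth of the junction. At junctions with under 100 reads over the 3 libraries, 59 of 118 unequal events were GT-AG or GC-AG, 53 had opposite-strand ends and 6 had other ends. At junctions with 100000 reads or more, 72 of 88 (81.8%) had other ends and 7 were GT-AG or GC-AG. The median level of all events fell from 42.6% at the first depth to 0.00339% at the last.

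**Figure D4:**
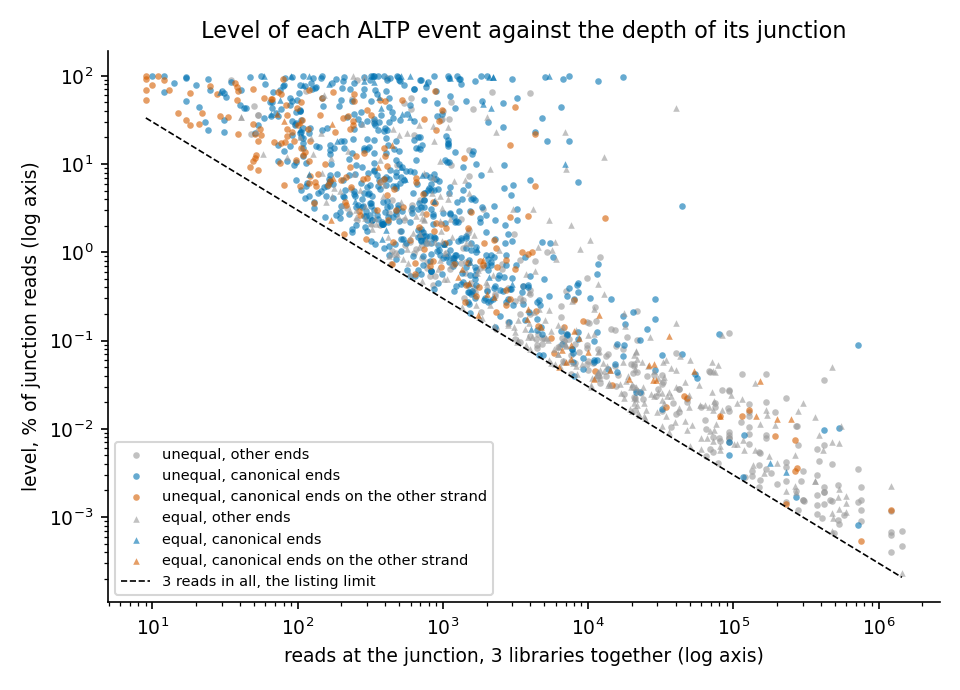
Mean level of each event (y axis, % of junction reads, log scale) against the reads of its junction over the 3 libraries (x axis, log scale), by kind of shift (circles unequal, triangles equal) and ends of the new intron (colours). The dashed line marks 3 reads in all, the limit for a listed event, and events with other ends follow it to the deepest junctions.

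Genes on a photosynthesis list, chosen with earlier results of these data known, held 87 of the 136 events at junctions with 100000 reads or more. PSBO2, of the oxygen-evolving complex, had 11 ALTP events, CA1, a carbonic anhydrase, 10, and NPQ4 (the PsbS protein of photoprotection), RBCS1A (a small subunit of Rubisco), PSBR (a photosystem II protein), HCEF1 and RBCS3B 9 each. Of the 28 photosynthesis genes on the list, 25 had at least 1 event (89.3%, against 7.48% of all listed nuclear genes). Of their 115 events 38 were equal and 8 were unequal with GT-AG or GC-AG ends, and their median level was 0.00363% at a median of 269347 junction reads. The events of RBCS1A were between 0.000232 and 0.00224%, and those of PSBO2 between 0.00501 and 0.121%. A GT-AG event of RBCS3B, with both exons shorter by 15 and 21 nt, had 247, 123 and 233 alternative reads at 0.132, 0.0711 and 0.0641%, and was highest in replicate 1; reads shared among the Rubisco small subunit copies make it uncertain. The part of depth in the share of genes with an event was not tested. Of the lists of regulators, 1 of 18 SR splicing proteins (5.56%), 2 of 12 other splicing factors (16.7%) and 0 of 21 genes on the clock and light list had an event. That list does not hold COP1, whose event is given above. Most genes, 838 of the 1082, had a single ALTP event.

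In 139 unequal events (12.8%, 95% Wilson interval 10.9 to 14.9) the new intron held 50% or more of the junction's reads. At most of these the listed form was nearly absent: in 54 no read was left outside the listed events, and in 85 such reads were under 1%. The new intron was an annotated intron of the same gene in 94 of the 139 (67.6%, interval 59.5 to 74.8), against 184 of 949 (19.4%) below that level. Among the 98 with GT-AG or GC-AG ends, 90 were annotated, 54 of them in the gene's transcript model numbered 1 when the listed intron was not, and in 29 the listed intron was in that model and the new one was not. The median level of annotated GT-AG or GC-AG introns was 23.1, 25 and 25.1%, and of unannotated ones 1.52, 1.36 and 1.17%. Their junctions had medians of 383 and 934 reads over the 3 libraries, so depth and annotation cannot be told apart in these medians. The class name thus says only that a form differs from the listed intron, and does not say that it is the rarer form.

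The 4 leading unequal events were of this kind. SNG1 had 4541, 4403 and 7700 alternative reads, at 96.2, 95.3 and 96.2% of the junction (95.9% ± 0.524, SD, n = 3), with 3 reads in all outside the listed events and 3.58% retained. UBC8 had 2525, 2999 and 4568 at 85.1, 87.5 and 87.1% with 12.7% retained. In eEF-1Bb1 the level was 99.6, 99.9 and 99.5%, and in HMGB3 91.4, 94.0 and 91.8% with 7.62% retained and no read outside the listed events. The libraries lay within 3 points of each other in each gene, and replicate 1 was below the others only in UBC8 and HMGB3. UBC8 was the only 1 of 5 genes of its ubiquitin-conjugating group with an ALTP event, and HMGB3 the only 1 of 5 HMGB genes. Of all listed nuclear genes 7.48% had an event. Groups of 5, chosen with earlier results known, are too small to set against that share.

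**Figure D5:**
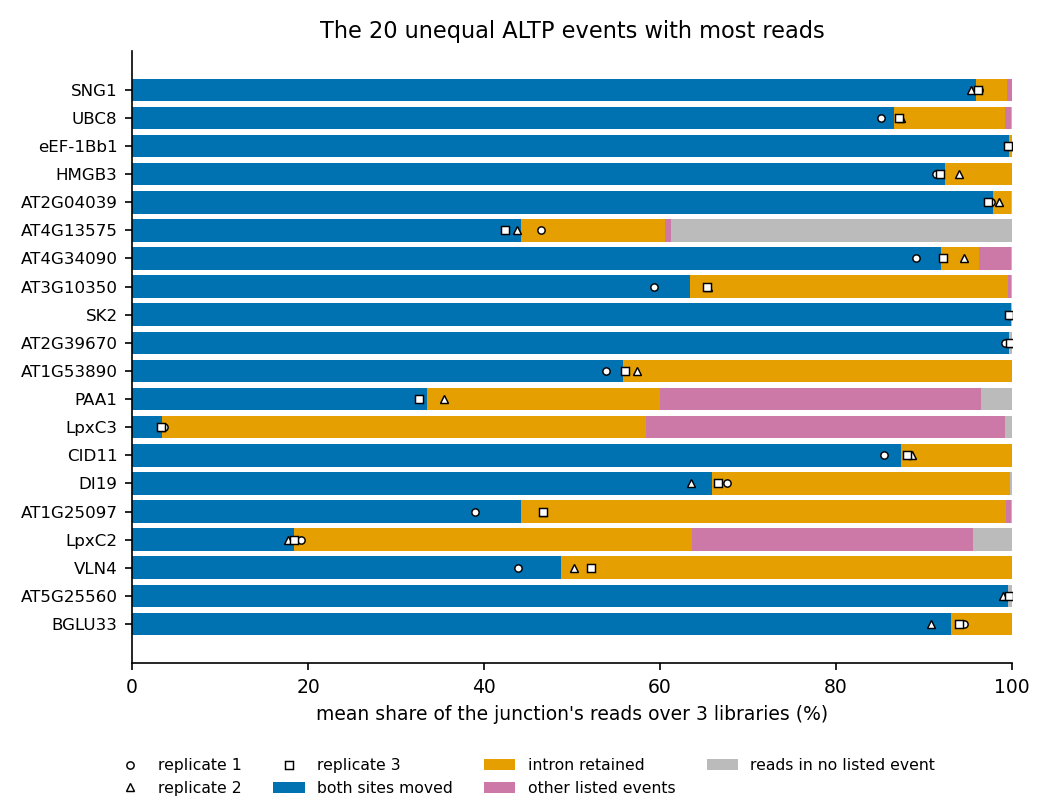
Mean share of the junction's reads over the 3 libraries (x axis, %) for the 20 unequal events with most reads, split into reads of the new intron, retained reads, other listed events and reads in no listed event; symbols give the level in each library. Most junctions have next to no reads outside the listed events, and AT4G13575 has the largest share of them among the 20.

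SNG1 lies in a tandem row of serine carboxypeptidase-like genes, and 3 neighbours had an ALTP event at the same junction, between exons 13 and 14, with a new intron that starts GC. Their sequences follow to show the shared donor.
SCPL13 donor side, chr2:9782883-9782904: actatcaaaGCAAgtcttcttg
SCPL11 donor side, chr2:9778048-9778069: actgtcaaaGCAAgtcttcttg
SCPL9 donor side, chr2:9802309-9802330: actgtcaaaGCAAgtcttaatt
SCPL13 was at 56.4, 45.3 and 55.6% with 47.2% retained, SCPL11 at 93.8, 84.9 and 92.1% with 9.75% retained, and SCPL9, an equal slide of 4 nt, at 100, 100 and 94.9% on 13, 18 and 56 reads. SCPL13 and SCPL11 were lowest in replicate 2. All 4 new introns are annotated. The genes are close copies, and reads that could be shared between them make their values uncertain.

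The other leading unequal events fell into 3 kinds. AT2G04039 was at 97.6, 98.6 and 97.3%, SK2, a shikimate kinase of aromatic amino acid synthesis, at 100, 100 and 99.7%, AT2G39670 at 99.2, 100 and 99.8% and AT5G25560 at 100, 99.0 and 99.7%, so that the new intron was nearly all of the junction. In CID11, of an RNA-binding family, the level was 87.4% ± 1.68, in BGLU33, a beta-glucosidase, 93.1% ± 2.01, and in AT4G34090 91.9% ± 2.77 (SD, n = 3). AT1G53890 at 55.8% ± 1.81 and VLN4, an actin-bundling villin, at 48.8% ± 4.32 shared the junction with retained reads, 44.2 and 51.2%, and had no read outside the listed events. PAA1, the copper pump of the plastid envelope, was at 33.5% ± 1.63 with a long shift of 665 nt at the donor and 516 nt at the acceptor.

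AT4G13575 stood apart among the leading events. It had 974, 639 and 1252 alternative reads at 46.5, 43.7 and 42.4%, with the donor 45 nt and the acceptor 43 nt downstream, and a GT-AG intron that is not annotated. Of the junction's reads 2555 were in no listed event, so that the listed form or an unlisted one was present beside it. Other unannotated GT-AG introns of many reads were in AT5G06440 (41.2, 32.2 and 31.8%), AT1G49180 (32.1, 43.5 and 34.5%) and AT4G09250 (20.7, 23.3 and 19.2%).

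At 10 or more reads a library, the highest levels among the remaining events were in ATG2, an autophagy protein, and DCL3, a Dicer-like enzyme of small RNA production, both at 100% in all libraries. ROF1, an immunophilin, was at 99.9%, ATMIN7, an exchange factor of vesicle traffic, at 99.8% and TRN1, a transportin, at 99.7%. All 5 new introns are annotated, and no junction of the 5 had more than 2 reads outside the listed events.

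Short donor shifts marked the canonical introns of high level. Among the 98 GT-AG or GC-AG events at 50% or more, the donor had moved 4 nt in 26, upstream in 25 of these, as in the capitals GTAA of eEF-1Bb1 above. Of the 522 such events below 50%, it had moved 4 nt in 29 and upstream in 15. Both sites had moved upstream in 44 of the 98 (44.9%) and 103 of the 522 (19.7%). GC-AG introns made up 13 of the 98 (13.3%) and 13 of the 522 (2.49%). These shares describe the listed coordinates and have no replicates.

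New introns with opposite-strand ends were a group of their own. Of the 193 CT-AC or CT-GC introns 54 (28.0%), in 42 genes, matched to the base an annotated intron of a gene on the other strand, and 67 lay inside such a gene. Of the 620 GT-AG or GC-AG introns, 0 matched one and 12 lay inside such a gene. The 0 follows from the ends that define the class, which read CT-AC or CT-GC on the other strand, and is no test. Neither new site was listed alone as a donor or acceptor shift in all 193, and in 355 of the 620 (57.3%). A CT start with the listed AG end would be canonical on neither strand, so these shares are not a like comparison. The example below is MAP65-8, a microtubule-associated protein gene on the + strand, whose new intron is an annotated intron of AT1G27921; the end bases are in capitals.
MAP65-8 new intron, start, chr1:9727489-9727500: CTggaagagtaa
MAP65-8 new intron, end, chr1:9727568-9727579: gtttcagataAC
The same intron on the other strand, start: GTtatctgaaac
The same intron on the other strand, end: ttactcttccAG

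MAP65-8 had 43, 59 and 105 alternative reads at 53.1, 50 and 51.7%. BGAL12, a beta-galactosidase gene opposite AT4G26145, had its leading event at 62.3% ± 2.58 (SD, n = 3), and AT5G17523, opposite AT5G17522, at 63.4, 73.1 and 67.4%. AT1G25097, opposite AT1G25098, had the most such reads, 395, 332 and 654, at 39.0, 46.8 and 46.7%, lowest in replicate 1. Events of LpxC3 and LpxC2, near-identical genes on the same chromosome, had similar numbers, 504, 344 and 651 and 433, 320 and 613. Whether AT1G25097 shares reads with them was not tested, so it may not be an independent example. The sources used here do not give the strandedness of the libraries, and without it reads of a gene and of its antisense partner cannot be told apart, so these levels are uncertain as splicing of the listed gene. The 54 matched events lay at junctions with a median of 119.5 reads over the 3 libraries, against 474 for the 139 others. Depth and match thus cannot be told apart in their levels. The matched events had medians of 20.0, 20.0 and 25.2%, and the 139 others 4.18, 3.03 and 2.86%. Among the latter, UXS1, a UDP-xylose synthase, was at 34.4, 43.2 and 44.9% and AT5G24210 at 19.8, 12.5 and 17.2%.

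A small set had the ends of minor introns. New introns of 24 unequal events in 23 genes were AT-AC, with median levels of 31.7, 33.5 and 32.3% and a median of 27.7% of reads retained, and 12 were annotated. The first 6 bases were ATATCC in 15 of the 24, on the gene's strand, against 81 of the 136308 annotated nuclear introns (0.0594%). The 24 were picked for a start with AT, whereas nearly all annotated introns begin with GT. The contrast is thus largely set by that choice. The match is of letters and no test of the site. DI19, a drought-induced zinc finger protein, led by reads, with 351, 421 and 661 at 67.6, 63.5 and 66.6% and 33.9% retained. Its listed GT-AG intron had 4 reads at most, and its AT-AC intron is not annotated in RefSeq.
DI19 donor side, chr1:21073889-21073917, − strand: accatgggaGTTTATTTAAGatatccttt
DI19 acceptor side, chr1:21073785-21073808, − strand: gagttttacTTGCAGcgaaagaga
The new intron starts after the capitals at the donor and ends before them at the acceptor. NERD, a factor of DNA methylation, was at 94.5, 95.7 and 90.8% with an annotated AT-AC intron, and AT3G06760 and AT3G50590 were at 42.2% ± 5.47 and 40.0% ± 4.74 with most other reads retained. Outside these ends, AT3G10350 had an annotated GA-AG intron at 59.4, 65.5 and 65.3%.

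Reading frame was examined over the 929 unequal events inside coding sequence. The net change of exon length was a multiple of 3 in 405 (43.6%, interval 40.4 to 46.8). Among GT-AG or GC-AG introns at 50% or more it was so in 69 of 91 (75.8%, 66.1 to 83.5), and below 50% in 157 of 403 (39.0%, 34.3 to 43.8). Opposite-strand ends gave 65 of 174 (37.4%, 30.5 to 44.7) and the 5′ untranslated region 31 of 105 (29.5%, 21.6 to 38.8). The intervals of the GT-AG or GC-AG sets at 50% or more and below 50% do not overlap. They cover counting error only, and the libraries enter through the level alone. Coding or not, annotated introns were 90 of the 98 such events at 50% or more and 174 of the 522 below. Level and annotation thus cannot be told apart in this contrast. SNG1 and eEF-1Bb1 are net changes of -2 and -1 nt against the listed intron, whereas UBC8 is one of -3 nt.

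Untranslated regions held fewer of the unequal events, 105 in the 5′ region and 14 in the 3′ region. ARP9, an actin-related protein, had a 5′ event at 63.3, 67.5 and 81.8%, and IQD5, a calmodulin-binding protein, one at 55, 52.8 and 53.5%. In the 3′ region DYL1, a dormancy-associated protein, had 85, 398 and 197 reads at 65.9, 45.3 and 45.2%, and VLN4 is given above. ARP9 was highest in replicate 3 and DYL1 in replicate 1, and in both the libraries differed beyond counting error (chi-square test of homogeneity, Benjamini-Hochberg adjusted p = 0.000369 and 0.00129).

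For 85 of the 620 GT-AG or GC-AG events both new sites were also listed alone. At the median, 31.9% of the reads of the new donor used the new acceptor and 33.1% of those of the new acceptor used the new donor. A log2 odds ratio set use of both new sites together against independent choice of the 2 sites, where it would be 0. Retained reads were left out, and all other reads of the junction, listed or not, counted as using neither new site. The ratio was above 0 in all 3 libraries at 57 events and below 0 in all 3 at 9, with a median of 2.03. It is not the share of reads with both sites, which is given above. An event enters the list only with a read of the combined form in every library. The 85 also needed each new site listed alone, which leaves out the 355 events with neither site listed alone. How these conditions move the values was not tested.

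Library levels differed beyond counting error in 65 ALTP events (4.33%), against 10.1% of all 62849 nuclear events tested (chi-square test of homogeneity, Benjamini-Hochberg adjusted over all of them). With at least 10 alternative reads in every library the counts were 31 of 322 ALTP events (9.63%) and 3586 of 18254 nuclear events, a higher share. Of the 65, 38 were highest in replicate 1, 17 in replicate 2 and 10 in replicate 3, and without replicate 1, 2 or 3 the count was 11, 38 or 36. The matching split and counts are not given for all nuclear events, so these numbers cannot be called particular to ALTP events. Of the events named above, those of RBCS3B, HCEF1, SAMC1, NOA1, HMGB3, SCPL13, AT4G34090, AT3G10350, AT3G06760, AT1G25097, AT5G24210, BRS1 and VLN4 were among the called. The median SD over libraries at 10 or more reads was 2.16 points for GT-AG or GC-AG introns, 5.39 for opposite-strand ends and 1.26 for equal events.

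The largest ranges among the called events were spread over classes. ULT1, a trithorax-group regulator, had 21, 46 and 113 alternative reads at 100, 70.8 and 94.2%, lowest in replicate 2. AT2G26692 was at 91.9, 59.4 and 54.9% and SPT1, a subunit of serine palmitoyltransferase, at 44.7, 20.1 and 32%, both with opposite-strand ends. AT4G36850 was at 45.5, 20.7 and 16.6% with an equal slide of 1 nt, and AT1G79640 at 21.5, 46.3 and 29.4%. Replicate 1 was the highest in 4 of the 5, and replicate 2 in AT1G79640.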

How the data were processed

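The authors deposited 1 table of raw read counts, per the file headers with an alternative and an other count for each event in each library. Per the submitters' processing notes, CASAVA 1.8.2 and GSNAP were used with TAIR10. The sources used here do not give the aligner's settings, the tool that classed the events or the strandedness. Libraries were Illumina TruSeq from DNase-treated RNA, per the labels' protocols.

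From these counts the levels were computed per library with Python 3.11.15, pandas 2.3.3, numpy 2.4.6 and scipy 1.17.1. The meaning of the class ALTP was read from the coordinates, since no label defines it. The listed and the new intron were built from the coordinates of each event alone. The strand was that of the annotation in 1499 of 1500 events, and 96% of the listed introns are annotated in RefSeq TAIR10.1. Reads in no listed event are the junction total less all events listed there, and all 1500 events share that total with the other events of their junction. The slides were compared base by base. Wilson 95% intervals cover counting error only. The homogeneity test was run on all nuclear events and was tested on simulated data. Precision follows the reads of each junction, and p-values over libraries measure a spread that may be technical.

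Named events were the 20 unequal and 5 equal events with most reads, the 5 of highest level and the 5 of widest called range at 10 or more reads, the genes with most events, the gene lists and the 3 leading events near an equal shift. Leaders within the classes of ends, regions and spliced RNA were added after their values were seen. The members and lists were chosen with earlier results of these data known. Events outside the nuclear chromosomes were left out. Alternatives were a minimum of 10 reads, 1 event per gene, summed reads, an adjusted p of 0.01 and each library left out.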

Additional observations from a re-analysis of the deposited data

Results flagged for a closer look

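Outside the nuclear chromosomes, which the comparisons left out, 8 further ALTP events were listed, and they are given here because they lie in data no comparison used. Equal and unequal shifts were not separated for them. ATCG00830 and ATCG01310, the 2 copies of the rpl2 ribosomal protein gene in the plastid's inverted repeat, were at 10.9% ± 0.861 and 10.9% ± 0.902 (SD, n = 3) on 876 and 874 alternative reads, and the reads of the copies cannot be told apart. ATCG00670, the clpP protease gene, was at 41.9, 61.0 and 60.0%, and ATCG00180, the rpoC1 polymerase gene, at 8.36% ± 1.91. The other 4 events, in ATMG00580, ATMG00513 and ATMG00285, rested on 9 to 23 reads.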

How the results depend on the processing

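A minimum of 10 alternative reads in each library kept 322 events. It raised the median level to 33.96% for unequal and 20.8% for equal shifts, the share at 50% or more to 37.7%, the GT-AG or GC-AG share to 72.6 and 35.7%, the annotated share to 57.9% and the share divisible by 3 to 53.4%. It turned the differences of unequal events from single acceptor and donor shifts to 15.7 and 16.8 points; the cause was not tested. With 1 event per gene the medians were 3.34% and 0.305% and the share at 50% or more 16.5%. Summed reads gave 2.39% for unequal shifts. The homogeneity count was 42 when only events with 10 reads were tested, 25 at an adjusted p of 0.01, and 11 to 38 with 1 library left out. These are counts of ALTP events, without the matching counts over all nuclear events. The other 28 values under alternatives kept their direction, but some differences of medians moved in size: unequal minus equal shifts was 13.1 points at 10 reads and 3.03 with 1 event per gene, and unequal minus acceptor shifts was -1.13 with 1 event per gene and -0.0922 with summed reads. Coordinates from the first transcript were not run, since both introns come wholly from the listed coordinates. No paired analysis was possible because all libraries form 1 group. Depth limits the low levels: 38.1% of unequal and 52.7% of equal events rest on 10 reads or fewer in all.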

Other observations

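The near-identical genes LpxC3 and LpxC2, deacetylases of the lipid A type, had the same pair of shifts, 921 nt at the donor and 4122 nt at the acceptor, at 3.62, 3.30 and 3.25% and at 19.2, 17.8 and 18.4%. Reads shared between the copies make both values uncertain. SR34, an SR splicing factor, had a shift of 387 nt at the donor and 353 nt at the acceptor at 8.32, 4.87 and 6.49% with 37.1% retained, in a GT-AG intron that is not annotated. AT1G60900, a large subunit of the splicing factor that binds the polypyrimidine tract, had one at 2.33, 2.57 and 2.99%. AE7, a factor of cytosolic iron-sulphur cluster assembly, was at 47.7, 51.8 and 53.3% with an unannotated AT-AA intron.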
